A study of Mus musculus with 3 samples.

Results

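The creatine kinases and the oxygen and energy buffers of the muscle cell are described here in cultured mouse myoblasts, the proliferating precursors of muscle fibers. The 10 genes are the creatine kinases Ckb, Ckm, Ckmt1 and Ckmt2, the creatine synthesis enzymes Gatm and Gamt, the creatine transporter Slc6a8, the oxygen-binding protein Mb, and the adenine nucleotide enzymes Ak1 and Ampd1. They were taken by symbol out of the 35562 genes to which the listed transcripts belong, by a list of names rather than a threshold on their values, and the list was drawn up with earlier results of these data known. All 56 of their annotated transcripts were listed in every library.

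Bulk poly-A RNA-seq was performed on 3 lines of edited Dmdmdx; Pax7-nGFP myoblasts, called lines 66, 67 and 72, with 1 library each. The Dmdmdx mouse carries a premature stop codon in dystrophin and models Duchenne muscular dystrophy, and the Pax7-nGFP transgene puts a nuclear green fluorescent protein under Pax7, the satellite cell transcription factor. In induced pluripotent stem cells, CRISPR/Cas9 editing removed a splice donor site of dystrophin, so that exon skipping restored the reading frame. Cells of an edited clone were injected into mouse blastocysts of the genotype Pax7Cre/ERT2; Rosa26lsl-DTA, and GFP-positive myoblasts were recovered from the muscles of the resulting intraspecies chimeras. Cre driven by Pax7 switches on diphtheria toxin in host satellite cells after tamoxifen, and the labels give neither the age nor the tamoxifen status of the chimera behind each line. The lines form 1 condition, so no comparison between conditions was possible, and unedited or reporter-only myoblasts were not analysed here. Total estimated counts were 73274315 in line 66, 66972426 in line 67 and 70272367 in line 72, at which 3 counts correspond to 0.0409 to 0.0448 counts per 1000000 (CPM). Values are given as transcripts per 1000000 (TPM), which divides counts by transcript length, so that different genes of a library may be set side by side. The deposited effective length, by which TPM divides, exceeded the transcript length for 22208 to 23603 transcripts per library, Ckb-201 and Ckm-201 among them, so TPM compares genes only as far as that length is accurate. Nothing in the labels says more about how far the 3 lines are independent, and every SD measures the spread between these libraries only.

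Creatine synthesis begins with GATM, which makes guanidinoacetate from arginine and glycine, and ends with GAMT, which methylates guanidinoacetate to creatine. It enters cells through SLC6A8. Creatine kinases pass phosphate between ATP and creatine: CKB, the brain type, and CKM, the muscle type, are cytosolic, whereas CKMT1 (ubiquitous) and CKMT2 (sarcomeric) sit between the mitochondrial membranes. In muscle, CKM also binds the M-line of the sarcomere, and CKB is known to give way to CKM as myoblasts become fibers. Myoglobin stores oxygen, adenylate kinase 1 makes ATP and AMP from a pair of ADP molecules, and AMP deaminase 1 turns AMP into IMP in working muscle.

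The identity of the cultures was examined first. All 7 myoblast markers, Pax7, Myf5, Myod1, Itga7, Cdh15, Vcam1 and Des, were at or above 10 TPM in every line, with a summed level of 2031, 1968 and 1900 TPM in lines 66, 67 and 72. The differentiation list was also expressed: 11 of 15 genes reached 10 TPM in every line, and their summed level was 2272, 3223 and 3904 TPM. Myog, the transcription factor of early differentiation, measured 168, 222 and 310 TPM. All 15 differentiation genes were lowest in line 66, and 13 were also highest in line 72. Of all genes averaging 1 TPM or more, a level that Myh2 of the list did not reach, 44.2% were lowest in line 66 and 27% had the full order. The median ratio of line 72 to line 66 over the list was 1.87. None of the genes listed for neural and glial cells, fibroblasts, endothelium, blood, or smooth muscle and heart reached 10 TPM in every line. Over the lines, the summed level was 0.497 to 0.822 TPM for 5 fibroblast genes, 0.298 to 0.684 TPM for 2 endothelial genes, 0.00484 to 0.116 TPM for 3 blood genes and 0.0681 to 0.621 TPM for 3 genes of smooth muscle and heart, among which Lum, Dpt, Hbb-bs and Nppa were at 0 in all lines. In bulk RNA, more differentiated cells and more transcript per cell cannot be told apart.

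Transcript levels of the 10 genes spanned from 241 TPM for Ak1 to 0.453 TPM for Ckmt2. Of the 10, 6 were at or above 10 TPM in every line (Ak1, Gatm, Ckb, Slc6a8, Gamt and Mb), against 31.5% of the 25510 genes detected in any line. Ckm and Ampd1 were above 1 TPM in every line, and Ckmt1 and Ckmt2 were below it. For comparison, the median detected gene had a mean of 0.861 TPM. Ordered by mean level, the sequence was Ak1, Gatm, Ckb, Slc6a8, Gamt, Mb, Ckm, Ampd1, Ckmt1 and Ckmt2. Among neighbors in that order, only Ckb with Slc6a8 and Ckmt1 with Ckmt2 had overlapping ranges, and those pairs did not differ beyond the spread between lines. For Ckb with Slc6a8 this held only in TPM over all transcripts. Over coding transcripts Ckb, at 56.3 to 61.1 TPM, lay above Slc6a8, at 30.8 to 52.4 TPM. In CPM, which does not divide by length, Slc6a8 at 86.3 to 156.2 lay above Ckb at 55.6 to 61.7.

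**Figure D1:**
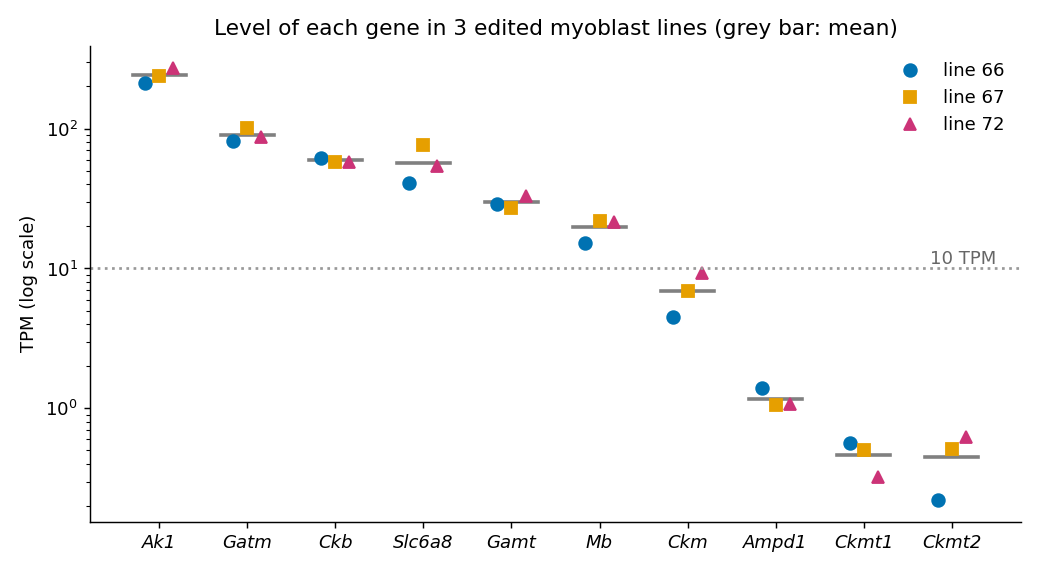
Level of each of the 10 genes in TPM (vertical axis, log scale) in lines 66, 67 and 72 (circles, squares and triangles), with a grey bar at the mean of the 3 lines and a dotted line at 10 TPM. Ckb lies between 57.6 and 61.9 TPM in all lines, Ckm between 4.52 and 9.30 TPM, and both mitochondrial creatine kinases below 1 TPM.

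The brain-type enzyme gene was the main creatine kinase transcript. Ckb (ENSMUSG00000001270, chr12:111669361-111672338 on GRCm38, minus strand) measured 61.9 TPM in line 66, 57.6 TPM in line 67 and 58.1 TPM in line 72, a mean of 59.2 ± 2.38 TPM (SD, n = 3). Its coefficient of variation of 4.02% was the smallest of the 10 genes, and its 4518, 3856 and 3910 estimated counts make it well measured. Between 97.3% and 97.6% of these counts were assigned to the coding transcript Ckb-201, and the rest to retained-intron transcripts.

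Ckm (ENSMUSG00000030399, chr7:19404776-19422841, plus strand) was lower and less even. It measured 4.52 TPM in line 66, 6.88 TPM in line 67 and 9.30 TPM in line 72, a mean of 6.90 ± 2.39 TPM (SD, n = 3). The estimated counts behind these values were 228, 317 and 404. Scaled to depth, they came to 3.11 CPM (95% exact Poisson interval 2.72 to 3.54), 4.73 CPM (4.23 to 5.28) and 5.75 CPM (5.20 to 6.34). These intervals cover counting error only: line 66 was separate from the other lines, whereas lines 67 and 72 overlapped. Line 72 was 2.06-fold above line 66 in TPM, 1.85-fold in CPM and 1.79-fold after TMM scaling, and line 67 lay between them on each scale. Each line is a single library, so this difference had no replicate check.

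Both cytosolic genes were set against each other within each line, which asks which isozyme these myoblasts transcribe. In TPM, Ckb was 13.7 times Ckm in line 66, 8.36 times in line 67 and 6.24 times in line 72. On the log2(TPM + 1) scale, Ckb exceeded Ckm by 3.51, 2.89 and 2.52, a mean of 2.97 ± 0.50 (SD, n = 3), so that the difference was present in 3 of 3 lines and larger than its spread. The exact two-sided sign-flip permutation test gave p = 0.25 (Benjamini-Hochberg adjusted p = 0.375 over 3 differences), the smallest p that 3 lines allow. As a share of all creatine kinase TPM, Ckb held 92.1%, 87.9% and 85.0% in lines 66, 67 and 72, and Ckm held 6.73%, 10.5% and 13.6%. The line with the lowest ratio was thus the line with the most Ckm, while Ckb differed by at most 1.08-fold between any lines in TPM. After TMM scaling, Ckb measured 62.7, 58.3 and 54.9 CPM.

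**Figure D2:**
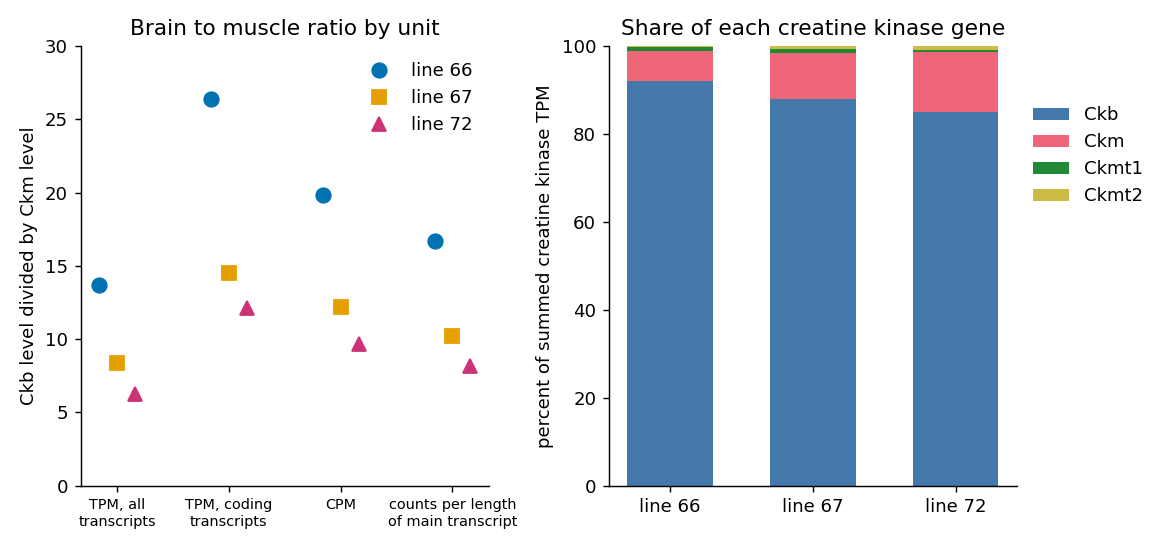
Left, the level of Ckb divided by that of Ckm (vertical axis, linear from 0) in each line, in TPM over all transcripts, TPM over protein-coding transcripts, CPM, and counts per length of the main transcript; right, the share of each of the 4 creatine kinase genes in their summed TPM in each line. Line 66 has the highest ratio and line 72 the lowest in all 4 units, between 26.3 and 6.24, and Ckb fills 85.0% to 92.1% of the bars.

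The Ckm level depended on how its transcripts were summed. GENCODE lists 3 transcripts for the gene. Ckm-201, a coding transcript of 1235 bases, received 51.9%, 62.2% and 60.4% of the counts in lines 66, 67 and 72, and Ckm-203, a coding transcript of 2742 bases with a longer last exon, received 23.2%, 15.6% and 12.2%. Ckm-202 has no coding sequence, begins upstream at position 19404776 and is 671 bases long. It received 24.9%, 22.2% and 27.4% of the counts but, being short, 48.7%, 43.5% and 49.6% of the TPM. The 212-base exon at chr7:19414119-19414330 belongs to Ckm-202 and Ckm-203 but not to Ckm-201, so reads from it could be assigned only to those transcripts. Counting only coding transcripts, Ckm measured 2.32, 3.89 and 4.69 TPM, and the ratio of Ckb to Ckm became 26.3, 14.5 and 12.1. Dividing all counts of a gene by the length of its most abundant transcript, an alternative chosen after seeing the data, gave ratios of 16.7, 10.2 and 8.15. In each of these units Ckb was above Ckm in 3 of 3 lines. An antisense gene, A930016O22Rik, overlaps Ckm, shares 372 of its 2904 31-base words, and was listed at 0.0700, 0.0512 and 0.0243 TPM. Without a stated strand setting, reads of the pair within the shared words cannot be told apart. Of the Ckm words, 86.4% were unique to Ckm.

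The mitochondrial creatine kinases were below 1 TPM in every line and rested on few counts, though above 45.5% and 45.3% of detected genes for Ckmt1 and Ckmt2. Ckmt1 (ENSMUSG00000000308, chr2:121357714-121363737, plus strand) measured 0.563, 0.506 and 0.323 TPM in lines 66, 67 and 72, from 25, 33 and 11 counts. Ckmt2 (ENSMUSG00000021622, chr13:91853387-91876885, minus strand) measured 0.221, 0.514 and 0.623 TPM, from 14, 30 and 37 counts. The 95% intervals of the Ckmt2 counts, scaled to depth, were 0.104 to 0.321 CPM for line 66, 0.302 to 0.639 CPM for line 67 and 0.371 to 0.726 CPM for line 72, so line 66 was separate from line 72 but not from line 67 at this depth. In line 66, 51.4% of the Ckmt1 TPM came from 4.11 counts on Ckmt1-210, a retained-intron transcript of 422 bases, and over coding transcripts Ckmt1 measured 0.274, 0.506 and 0.209 TPM. The order of the lines for Ckmt1 thus differed between units: line 66 was highest in TPM over all transcripts, and line 67 over coding transcripts and in CPM, at 0.493 against 0.341. Line 72 was the lowest in each unit, opposite to Ckmt2, and its 95% interval of 0.0781 to 0.280 CPM was separate from 0.339 to 0.692 CPM in line 67 but not from 0.221 to 0.504 CPM in line 66.

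Neither mitochondrial isozyme prevailed across all 3 lines. On the log2(TPM + 1) scale, Ckmt1 minus Ckmt2 was 0.36, -0.01 and -0.30, a mean of 0.02 ± 0.33 (SD, n = 3; exact sign-flip permutation p = 1, adjusted p = 1). The sign of the mean turned with the unit and was -0.06 in CPM and -0.12 over coding transcripts. Adding 1 TPM shrinks differences between genes below 1 TPM. As plain ratios, Ckmt1 was 2.55, 0.984 and 0.518 times Ckmt2 in TPM, and 1.79, 1.10 and 0.297 times in CPM. Only in line 72 were the 95% count intervals of these genes separate, with Ckmt2 higher. The summed cytosolic genes measured 66.4, 64.4 and 67.4 TPM, against 0.784, 1.02 and 0.945 TPM for the summed mitochondrial genes. The difference between the compartments was 5.24, 5.02 and 5.14 on the log2(TPM + 1) scale, a mean of 5.13 ± 0.11 (SD, n = 3; exact sign-flip permutation p = 0.25, adjusted p = 0.375), present in 3 of 3 lines. In linear terms, cytosolic transcripts were 84.7, 63.2 and 71.3 times as abundant as mitochondrial ones in TPM, 128, 59.1 and 73.8 times over coding transcripts and 121.7, 66.2 and 89.9 times in CPM.

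The sequences upstream of Ckb, Ckm and Ckmt2 are shown since these genes differ in level and in their spread between lines. They come from RefSeq promoter windows (GRCm38.p6), which covered 8 of the 10 genes, and are written 5′ to 3′ on the strand of the gene. Each stops before the first exon of the coding transcripts listed. For Ckm, the 250-base window was cut to 181 bases for this reason, and the stretch lies downstream of the first exons of the non-coding Ckm-202. Capitals mark a TATA box (TATAAA) and CCAAT boxes in Ckb, and E-boxes (CANNTG), the core motif bound by MYOD1 and MYOG, in Ckm and Ckmt2.
Ckb, chr12:111672339-111672588, minus strand: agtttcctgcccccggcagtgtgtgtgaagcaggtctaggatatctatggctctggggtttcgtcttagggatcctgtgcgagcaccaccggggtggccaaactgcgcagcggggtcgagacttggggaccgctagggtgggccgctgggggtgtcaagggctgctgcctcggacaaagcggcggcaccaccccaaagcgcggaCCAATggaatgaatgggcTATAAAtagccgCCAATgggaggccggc
Ckm, chr7:19410844-19411024, plus strand: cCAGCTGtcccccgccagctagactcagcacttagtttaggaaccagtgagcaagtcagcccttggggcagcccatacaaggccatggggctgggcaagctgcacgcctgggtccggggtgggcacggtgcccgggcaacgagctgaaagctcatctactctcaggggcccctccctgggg
Ckmt2, chr13:91876886-91877135, minus strand: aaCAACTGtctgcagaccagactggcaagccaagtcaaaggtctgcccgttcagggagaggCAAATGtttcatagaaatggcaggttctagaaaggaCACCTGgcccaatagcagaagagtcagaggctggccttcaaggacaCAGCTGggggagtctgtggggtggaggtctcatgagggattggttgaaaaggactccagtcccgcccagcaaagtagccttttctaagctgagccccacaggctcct
The Ckb window held TATAAA beginning 28 bases before the start, CCAAT at 46 and 16 bases before it, and no E-box. A match to the MEF2 motif overlapped that TATA box. The Ckm window held 1 E-box, CAGCTG, and the Ckmt2 window held 4 E-boxes, of which 1 was CAGCTG. Among the windows not shown, those of Mb, Ak1 and Gatm also held E-boxes, some of them CAGCTG in Mb and Ak1. Those of Ckmt1 and Gamt held no E-box. The Ckmt2 window also held CCAAT boxes at 145 and 69 bases before the start and a GC box (GGGCGG) at 46, all left in lower case. Over 32851 promoter windows of 250 bases, 66.2% held an E-box, 13.0% CAGCTG, 33.8% CCAAT, 32.7% GGGCGG and 2.92% a MEF2 match on either strand, and 7.59% held TATAAA on the strand of the gene. These matches describe the letters only and were not tested for binding.

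Both creatine synthesis genes were expressed, the first enzyme above the second. Gatm (ENSMUSG00000027199, chr2:122594467-122611303, minus strand) measured 82.0, 101.8 and 86.6 TPM in lines 66, 67 and 72, a mean of 90.1 ± 10.3 TPM (SD, n = 3). Its level was higher than 92.8% of detected genes, and 97.5% to 98.2% of its counts belonged to the coding transcript Gatm-201. Gamt (ENSMUSG00000020150, chr10:80258151-80261012, minus strand) measured 28.9, 26.9 and 33.0 TPM, a mean of 29.6 ± 3.12 TPM (SD, n = 3), from 1375, 1188 and 1483 counts. The ranges did not overlap, and the ratio of Gatm to Gamt was 2.83, 3.78 and 2.62. Chromosome 10, where Gamt lies, stood apart in line 66: its 427 genes averaging 10 TPM or more had a median log2 ratio to the other lines, relative to all genes, of 0.28 there, -0.09 in line 67 and -0.18 in line 72. The part of this shift in the Gamt values was not tested. Genes that supply the methyl group for GAMT were well expressed, with means of 263 TPM for Mat2a and 81.7 TPM for Mat2b, the subunits of methionine adenosyltransferase, and 150 TPM for Ahcy, which clears the spent methyl donor.

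The creatine transporter varied the most among the 6 genes above 10 TPM. Slc6a8 (ENSMUSG00000019558, chrX:73673150-73682502, plus strand) measured 40.9 TPM in line 66, 76.0 TPM in line 67 and 54.1 TPM in line 72, a mean of 57.0 ± 17.7 TPM (SD, n = 3). Line 67 was 1.86-fold above line 66 in TPM and 1.80-fold after TMM scaling. None of the 6 genes reached a 2-fold range between lines on TPM + 1, against 2.17% of the 8428 genes that averaged 10 TPM or more. Slc6a8 alone among them passed 1.5-fold, against 9.03% of those genes. Its transcripts also differed: the coding transcript Slc6a8-203 held 68.99%, 64.8% and 68.9% of the counts, and Slc6a8-202, annotated for nonsense-mediated decay, held 7.25%, 15.3% and 7.41%. Without that and other non-coding transcripts, Slc6a8 measured 30.8, 52.4 and 39.8 TPM, with line 67 still highest. Slc6a6, the taurine transporter of the same family, measured 175, 262 and 193 TPM and was likewise highest in line 67, and Slc16a12, a creatine carrier of another family, measured 0.172, 0.128 and 0.493 TPM. The ratio of Slc6a8 to Gatm was 0.499, 0.747 and 0.625.

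Myoglobin transcript was present at a moderate level. Mb (ENSMUSG00000018893, chr15:77015487-77050670, minus strand) measured 15.3, 22.0 and 21.7 TPM in lines 66, 67 and 72, a mean of 19.7 ± 3.78 TPM (SD, n = 3), from 527, 692 and 668 counts. Line 66 was lowest and the other two lines were within 1 SD of each other. Mb exceeded Ckm in every line, by 3.39, 3.20 and 2.33 times. Its counts were divided among 3 start regions. Transcripts starting at 77022727 to 77022787 received 38.2%, 49.9% and 50.6% of the counts, those starting far upstream at 77050569 to 77050670 received 39.4%, 24.4% and 34.4%, and Mb-206, starting at 77021963, received 22.5%, 25.8% and 15.1%. Within the upstream group, line 66 had no counts on Mb-205 while line 72 had 146, and Mb-202 had 207 counts in line 66 and 83.4 in line 72. All of these are estimates that divide shared reads, and only 72.3% of the 31-base words of Mb were unique to it, with 382 shared with the antisense gene Gm49540, listed at 0.151, 0.164 and 0.356 TPM. Of 6 other globin genes, Cygb was the highest at a mean of 1.81 TPM, and 4, the red cell globins, had at most 3 counts in any line.

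**Figure D3:**
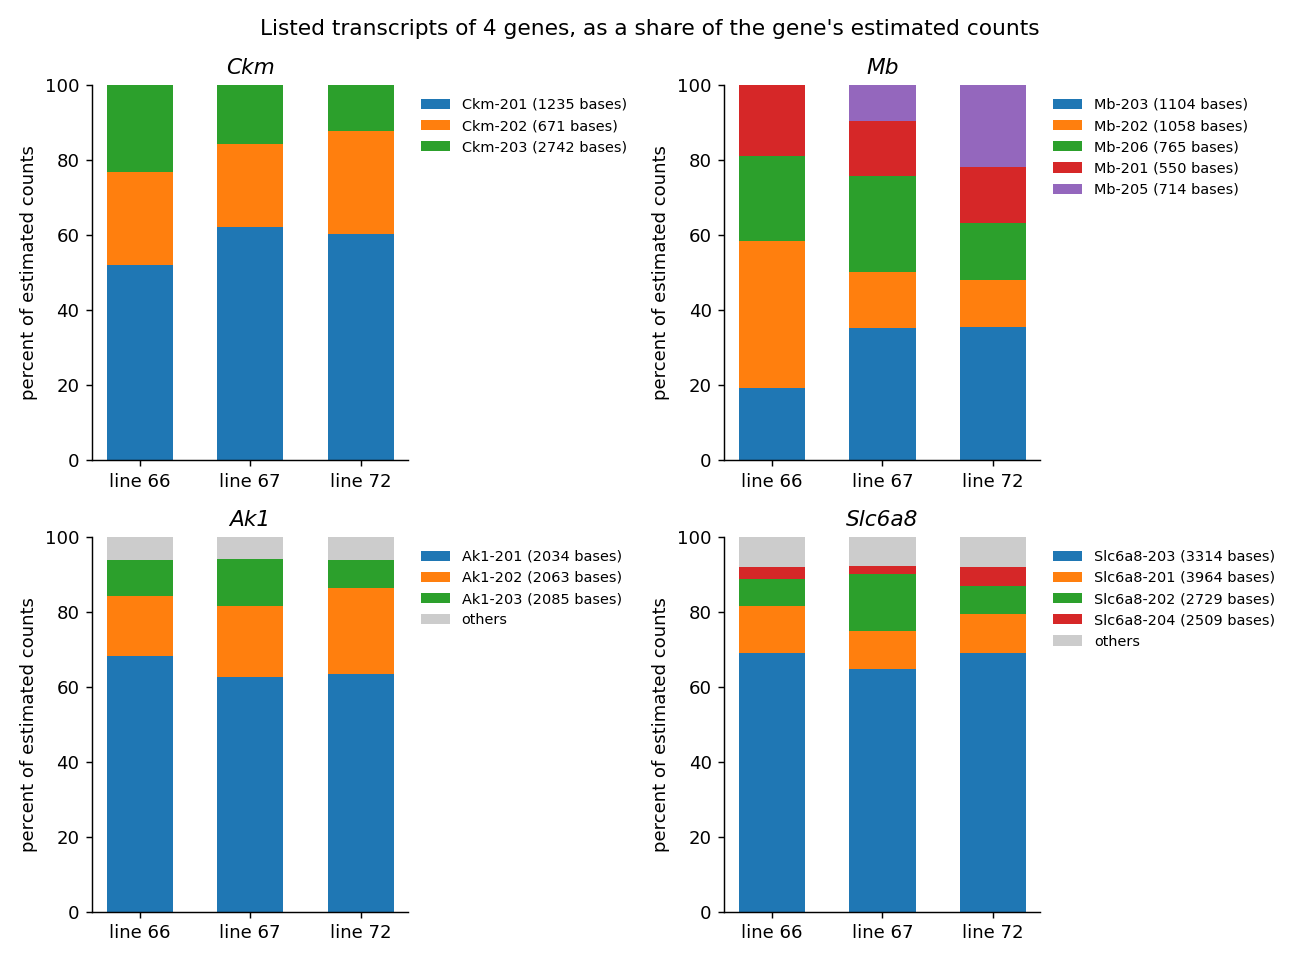
Share of each gene's estimated counts assigned to each listed transcript (vertical axis, percent) in lines 66, 67 and 72, for Ckm, Mb, Ak1 and Slc6a8; transcripts under 5% in every line are grouped as others. Ckm-201 holds the largest part of Ckm in every line, Mb-205 is absent in line 66, and Slc6a8-202 reaches 15.3% in line 67.

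Adenylate kinase 1 was the most abundant of the 10 transcripts. Ak1 (ENSMUSG00000026817, chr2:32621758-32635058, plus strand) measured 211 TPM in line 66, 238 TPM in line 67 and 273 TPM in line 72, a mean of 241 ± 30.95 TPM (SD, n = 3), above 97.6% of detected genes. The ratio of Ak1 to Ckb was 3.41, 4.13 and 4.70. Most Ak1 counts, 71.3%, 65.8% and 66.5%, came from transcripts starting at 32629504 to 32629521. Those starting at 32625437 held 16.1%, 18.8% and 22.9%, and Ak1-203, starting at 32621758, held 9.61%, 12.5% and 7.41%. A fragment of 359 bases, Ak1-205, named here after its values were seen, held at most 3.22% of the counts but 24.9% to 27.6% of the gene's TPM. With counts divided by the length of the main transcript, Ak1 measured 170, 194 and 216 per 1000000 and remained the highest of the 10. Among the other adenylate kinases on the list, Ak6, whose gene overlaps Taf9 on the same strand so that the division of reads between them is uncertain, had a mean of 191 TPM, and Ak3, of the mitochondrial matrix, had 31.5 TPM. The lowest was Ak9 at 0.0513 TPM.

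The muscle AMP deaminase was low. Ampd1 (ENSMUSG00000070385, chr3:103074014-103099720, plus strand) measured 1.40, 1.06 and 1.07 TPM in lines 66, 67 and 72, a mean of 1.17 ± 0.20 TPM (SD, n = 3), from 89, 95 and 84 counts. The line with the highest value was 66 in TPM and 67 in CPM, at 1.42 against 1.21, so no order of the lines is given. The other AMP deaminases were higher, with 49.5, 61.5 and 60.9 TPM for Ampd2 and 12.4, 15.3 and 18.6 TPM for Ampd3. The purine nucleotide cycle enzymes that return IMP to AMP reached 132 TPM for Adsl, 130 TPM for Adss2 and 15.96 TPM for Adss1, the muscle form of adenylosuccinate synthase, as means of 3 lines.

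The genes were then read against the differentiation list. Ckm, Ckmt2 and Ak1, 3 of the 10, were lowest in line 66 and highest in line 72, the order that 13 of 15 differentiation genes had. Of the 8 genes averaging 1 TPM or more, Ckm and Ak1, 2 in number, had it, a share close to the 27% of all genes at that level. Of the 6 genes averaging 10 TPM or more, Ak1 alone had that order, against 29.4% of all genes at that level, and 4 of 6 were lowest in line 66, against 47.7%. Line 72 relative to line 66 in TPM was 2.82 for Ckmt2, 2.06 for Ckm, 1.41 for Mb, 1.32 for Slc6a8, 1.29 for Ak1, 1.14 for Gamt and 1.06 for Gatm, and it was below 1 for Ckb (0.938), Ampd1 (0.763) and Ckmt1 (0.573). For Ampd1 this ratio was 0.984 in CPM and 1.01 per length of the main transcript, so its direction depended on the unit. The same ratio over the differentiation list was between 1.40 for Tnnc1 and 3.26 for Myh8. The 3 M-line genes had the same order as Ckm, with 4.42, 8.64 and 12.0 TPM for Myom2, 9.14, 11.9 and 13.4 TPM for Myom1, and 18.2, 22.4 and 26.8 TPM for Myom3. The part of the differentiated cells in the Ckm, Ckmt2 and Ak1 values was not tested. Ckb is also abundant in brain, and of 7 neural and glial markers none reached 10 TPM in every line. Their sum was 13.8, 18.4 and 10.2 TPM, most of it from Map2 and Mbp, and Rbfox3, Gfap and Sox10 had at most 3 counts in any line.

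**Figure D4:**
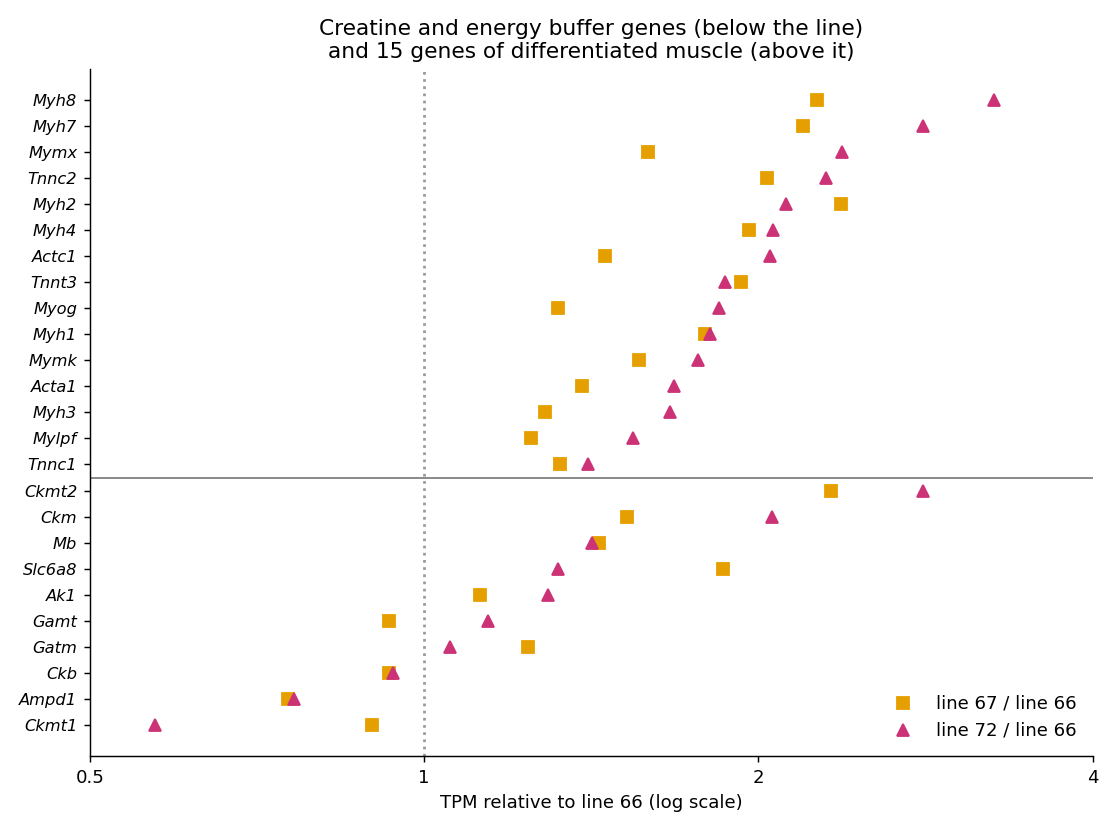
TPM of lines 67 (squares) and 72 (triangles) divided by that of line 66 (horizontal axis, log scale), for the 10 genes below the horizontal line and the 15 differentiation genes above it. All 15 differentiation genes lie right of 1 in both lines, as do Ckmt2, Ckm, Mb, Slc6a8, Ak1 and Gatm of the 10 genes. Ckmt2 and Ckm lie at 2.82 and 2.06 in line 72, and Ckb lies at 0.930 in line 67 and 0.938 in line 72. Of all genes averaging 1 TPM or more, 44.2% were lowest in line 66.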

How the data were processed

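RNA of 3 edited Dmdmdx; Pax7-nGFP myoblast lines was sequenced from stranded TruSeq mRNA libraries. The submitters' processing notes list bcl2fastq 2.20, fastp 0.20, kallisto 0.46.1 and GRCm39. The authors deposited estimated counts per transcript, not normalized, in which a read that fits several transcripts is divided among them. The authors also deposited TPM, the estimated count per effective length scaled to a total of 1000000. Strand and bias settings are not given in the sources used here.

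Transcripts were matched by identifier to GENCODE mouse release 21 (GRCm38), whose coordinates are printed; 1112 of 121798 transcripts, with 0.493% to 0.535% of counts, had no match and were left out of genes. TPM and counts were summed per gene with Python 3.11.15 and pandas 2.3.3. The CPM values were computed from the total of the estimated counts. Differences were taken on log2(TPM + 1) within each line and tested by an exact sign-flip permutation test. Fold ranges used TPM + 1 among genes averaging 10 TPM or more. TMM factors (edgeR 4.0.16) and DESeq2 1.42.0 size factors, from counts rounded to whole numbers, served as alternatives of scale. At the gene level, members' counts were whole to within 0.0212, except Slc6a8 (0.312). Intervals are exact Poisson at 95%. Scripts were tested on simulated data.

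Members, all genes of the comparison lists, and transcripts with at least 5% of a gene's counts in any line were eligible to be named, from lists by their highest and lowest genes and by those that answer to a member. Members and lists were chosen with earlier results of these data known. Adss1 and Adss2 were matched as Adssl1 and Adss. A gene of the adenylate kinase list is not reported here.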

Additional observations from a re-analysis of the deposited data

How the results depend on the processing

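The Ckb to Ckm difference kept its direction under the alternatives of unit and pseudocount. It was 3.45 in CPM, 3.14 with a pseudocount of 0.1 and 3.71 over coding transcripts. Per length of the main transcript, an alternative chosen after seeing the data, it was 3.28. It was 2.71 to 3.20 when each line was left out, where the sign could not turn because all 3 lines were positive. The cytosolic to mitochondrial difference ranged from 5.08 to 5.19 with a line left out and from 5.15 to 6.03 otherwise. The Ckmt1 to Ckmt2 difference changed sign, to -0.062 in CPM, -0.12 over coding transcripts and -0.15 per length of the main transcript. It was 0.08 ± 0.91 (SD, n = 3) with a pseudocount of 0.1, a wider spread than the 0.33 with a pseudocount of 1. With a line left out it ranged from -0.15 to 0.17, negative only without line 66. Ckmt1 rested on 11 to 33 counts and Ckmt2 on 14 to 37. The number of genes at or above 10 TPM in every line, 6, became 5 in CPM, where Mb fell below, and 8 at a minimum of 1 TPM. The number with a 2-fold range between lines was 0 and became 1, Slc6a8, at 1.5-fold. Of 70 recomputed mean levels, 54 stayed within 1 SD and 16 moved further. Those were 6 in CPM, 4 per length of the main transcript, 3 over coding transcripts and 3 with a pseudocount of 0.1, of 10 under each. The 54 include the 10 levels recomputed without each line. With 3 lines, leaving 1 out cannot move a mean beyond 1 SD, so these say nothing about stability. No paired analysis was possible because there is just 1 group of lines, and the differences between genes were already taken within each line.

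With 3 lines no exact p below 0.25 can be reached, and with a line left out none below 0.5. Shares of transcripts are estimates without an error of their own, and the depth leaves Ckmt1, Ckmt2 and Ampd1 with wide counting intervals.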

Other observations

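The energy sensor and the mitochondrial ATP export route were also measured, as lists around the 10 genes. Of 7 subunits of the AMP-activated kinase, 4 were at or above 10 TPM in every line, against 31.5% of all detected genes. The catalytic subunit gene Prkaa1 measured 61.9, 68.6 and 64.5 TPM in lines 66, 67 and 72, and Prkaa2, the form abundant in adult muscle, measured 1.73, 2.26 and 2.51 TPM, with no overlap. Prkag3, the muscle regulatory subunit, measured 5.73, 10.1 and 10.5 TPM and, as 6 of the 7 subunits, was lowest in line 66, against 44.2% of all genes averaging 1 TPM or more.

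Of 7 mitochondrial carriers and porins, 6 reached that level, against the same 31.5%. Slc25a3, the phosphate carrier, had the highest mean, 841 TPM. The adenine nucleotide translocases Slc25a4, the heart and muscle form, and Slc25a5 measured 398, 413 and 472 TPM and 631, 769 and 765 TPM, so that Slc25a5 was above Slc25a4 in every line. Slc25a31, the germ cell form, was lowest, with a mean of 0.0168 TPM. The pairs Prkaa1 with Prkaa2 and Slc25a5 with Slc25a4 were picked after their values were seen.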
